A study of Mus musculus with 6 samples.

Results

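The miR-183, miR-96 and miR-182 cluster is a group of 3 miRNA precursors that lie next to each other and are transcribed together. It was followed here through 5 mature miRNAs, mmu-miR-183-5p, mmu-miR-183-3p, mmu-miR-96-5p, mmu-miR-182-5p and mmu-miR-182-3p, which were taken by name from the 1915 mature miRNAs listed in each library. The samples were whole brains of wild-type C57BL/6 mouse embryos at E15.5, dissected after the gonads had formed, and the embryos were sexed by the presence of testicular cords. There were 3 female (F1, F2 and F3) and 3 male (M1, M2 and M3) libraries of small RNA, and each library held RNA pooled from several embryos, so that a replicate is a pool and not an embryo. No treatment, transgene or mutation separated the groups, and all embryos carried the same genotype. The number of reads on miRNAs was between 14802675 and 59362011 per library, and F2, the deepest, detected the fewest miRNAs (660, against 790 to 915 in the other 5). The median count of the detected miRNAs was 1846.5 in F2, against 218 to 352 in the other 5. Rare miRNAs were thus poorly represented in F2 despite its depth, and the reason was not tested.

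A miRNA precursor folds into a hairpin, and each side of the hairpin can give a mature miRNA, named 5p or 3p. Usually one arm is kept as the guide that directs the silencing complex to target mRNAs, through pairing of its seed, while the other arm is mostly discarded. The miR-183 cluster is known for high expression in sensory cells, among them the photoreceptors of the retina, the hair cells of the inner ear, the olfactory epithelium and the neurons of sensory ganglia, and also in the pineal gland. Changes in the seed of miR-96 cause hearing loss in mice and in humans.

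The precursors lie on chromosome 6 of mm9 (NCBIM37), on the reverse strand, and the annotation (GENCODE vM1) places no other gene over any of them. Mir183 comes first in the direction of transcription, from 30119668 to 30119737. Mir96 follows from 30119446 to 30119551, with 116 bases between the hairpins. Mir182 lies further on, from 30115918 to 30115992, with 3453 bases between it and Mir96. The nearest protein-coding genes are Nrf1, a transcription factor gene 12459 bases away on the side of Mir182, and Ube2h, a ubiquitin-conjugating enzyme gene 41551 bases away on the side of Mir183.

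The mature sequences are shown because the 3 guide arms resemble each other in the part that selects targets. They were taken from RefSeq (GRCm38.p6), where all 5 names matched, and the hairpin sequences are the same in mm9. The capitals mark the seed, bases 2 to 8 counted from the 5′ end.
mmu-miR-183-5p: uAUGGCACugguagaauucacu
mmu-miR-96-5p: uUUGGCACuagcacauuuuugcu
mmu-miR-182-5p: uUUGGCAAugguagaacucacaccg
mmu-miR-183-3p: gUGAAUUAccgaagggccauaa
mmu-miR-182-3p: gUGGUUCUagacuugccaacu

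No 2 members share a seed. Between miR-183-5p and miR-96-5p, 6 of the 7 seed bases are the same, with A2U as the difference (the base of the first miRNA, its position, then the base of the second). Between miR-96-5p and miR-182-5p, 6 of 7 are also the same, with C8A as the difference. miR-183-5p and miR-182-5p differ at both of these seed positions, yet over their whole length they are the most alike, with 18 of 22 positions identical against 13 of 22 for miR-183-5p and miR-96-5p. miR-1271-5p is the only other mature miRNA in the RefSeq table with the seed of miR-96-5p. The GC content was lowest in miR-96-5p, at 39.1%, followed by 40.9% in miR-183-5p, 45.5% in miR-183-3p, 47.6% in miR-182-3p and 48.0% in miR-182-5p. miR-96-5p also holds a run of 5 uridines, the longest in the 5 members.

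Levels are given as CPM, the reads of a miRNA per 1000000 reads on all miRNAs of its library. A small RNA read covers a whole mature miRNA, so that no correction for length applies, but the ligation of adaptors favours some sequences, and a difference in level between 2 miRNAs is one of reads. By the mean over the 6 libraries the order was miR-183-5p (2776 CPM, 61st of all miRNAs listed), miR-182-5p (971 CPM, 101st), miR-96-5p (53.5 CPM, 296th), miR-183-3p (16.8 CPM, 401st) and miR-182-3p (4.45 CPM, 523rd). This order held in 6 of 6 libraries for each of the 4 neighbouring pairs, which is a description, since the pairs were formed from the means of the same libraries. The log2 ratio of miR-96-5p to miR-183-3p was 1.62 ± 1.02 (SD, n = 6). That of miR-183-3p to miR-182-3p, 3.08 ± 3.10 (SD, n = 6), was no larger than its spread, which rests largely on F2. It ran from 1.2 to 9.29, the latter in F2, where miR-182-3p had 0 reads, and its mean without F2 was 1.83. miR-183-5p had on average 2.85 times the reads of miR-182-5p, which had 20.8 times the reads of miR-96-5p. The 5p arms of miR-183 and miR-182 together supplied 96.8% to 98.8% of the reads of the 5 members. The middle precursor of the cluster gave far fewer reads than those on either side.

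**Figure D1:**
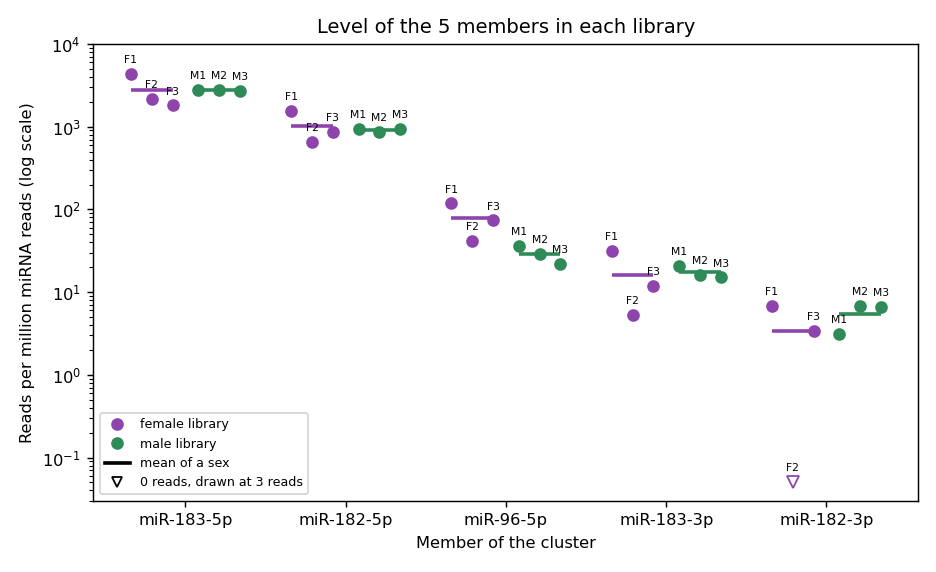
CPM (log scale) of the 5 members in the 3 female (F1 to F3, purple) and 3 male (M1 to M3, green) libraries, with a bar at the mean of each sex. Only miR-96-5p has every female library above every male library, and miR-182-3p had 0 reads in F2, drawn as a triangle at the level of 3 reads. A separation of the sexes, in TMM-scaled CPM, was found in 23.8% of all 1120 miRNAs tested.

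As a whole, the cluster took a small share of the reads, and the sexes overlapped. The 5 members together had 6108, 2856 and 2771 CPM in F1, F2 and F3 and 3800, 3718 and 3679 CPM in M1, M2 and M3, which is 0.277% to 0.611% of a library. F1 stood highest and the other 2 female libraries lowest, so that the females lay on both sides of the closely grouped males. Females averaged 3912 ± 1903 CPM (SD, n = 3) and males 3732 ± 62.0 CPM (SD, n = 3), a difference far below the female spread. A two-sided exact permutation test gave p = 1, and the smallest p that this design allows is 0.1. Since these are whole brains, a change in the number of cells that express the cluster and a change in the RNA per cell cannot be told apart.

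Male and female libraries were tested against each other in edgeR (quasi-likelihood) over all 1120 miRNAs with at least 10 reads over the 6 libraries, which include the 5 members, and p-values were adjusted over all of them (Benjamini-Hochberg). In this test 95 miRNAs, or 8.48%, had an adjusted p below 0.05, with 36 (3.21%) male-biased and 59 (5.27%) female-biased. Of the 5 members, 1 was female-biased and none male-biased. The share among the members is that of a single miRNA and is not a result about the cluster. Scaling by library total in place of TMM, edgeR's default, raised the median log2 fold change of well-covered miRNAs (mean of 100 reads or more) by 0.11 and changed the split to 50 male-biased and 39 female-biased. All log2 fold changes below are male over female, after TMM scaling except in DESeq2 and in the settings with another scaling. The 95% intervals come from the standard errors of the edgeR test.

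miR-96-5p was the member that differed between the sexes. It was measured with 1747, 2452 and 2637 reads, or 118.02, 41.3 and 73.7 CPM, in F1, F2 and F3, and with 684, 1277 and 523 reads, or 36.6, 29.1 and 22.1 CPM, in M1, M2 and M3. Every male library lay below every female library, although F2 and M1 came close. Such a separation, in TMM-scaled CPM, was found in 23.8% of the miRNAs tested. Females averaged 77.7 ± 38.5 CPM (SD, n = 3) and males 29.3 ± 7.24 CPM (SD, n = 3), so that females had 2.65 times the male level. edgeR gave a log2 fold change of -1.51 (standard error 0.35, 95% interval -2.23 to -0.80, adjusted p = 0.0045). The call was lost without F1, where the log2 fold change was -1.08 (adjusted p = 0.0762), and without M1, where it was -1.63 (adjusted p = 0.0955), while it was -1.78 without F2 (adjusted p = 1.2e-08).

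miR-183-5p, the most abundant member, did not pass the test. Its level was 4394, 2154 and 1809.6 CPM in F1, F2 and F3 and 2804, 2798 and 2698 CPM in M1, M2 and M3. The male libraries lay close together, whereas F1 lay above them and the other 2 female libraries below. Females averaged 2786 ± 1403 CPM (SD, n = 3) and males 2767 ± 59.8 CPM (SD, n = 3). In the edgeR fit the change was -0.12 on the log2 scale (adjusted p = 0.856, standard error 0.25), and its 95% interval, from -0.63 to 0.39, leaves out a change as large as that fitted for miR-96-5p. Its direction was not stable, as it was 0.38 without F1 and 0.17 once the GC trend was removed.

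miR-182-5p, the guide arm of the last precursor, followed a similar pattern. Its level was 1558, 655 and 872 CPM in F1, F2 and F3 and 936, 868 and 937 CPM in M1, M2 and M3. F1 was again the highest and the sexes overlapped. Females averaged 1028 ± 471 CPM (SD, n = 3) and males 914 ± 39.4 CPM (SD, n = 3). Its log2 fold change of -0.27 (95% interval -0.74 to 0.19, standard error 0.23) did not pass either (edgeR, adjusted p = 0.4995), and it turned to 0.16 without F1. In TMM-scaled log2 CPM, miR-182-5p and miR-183-5p had a Pearson correlation of 0.81 over the 6 libraries, against 0.65 for miR-182-5p and miR-96-5p and 0.32 for miR-183-5p and miR-96-5p, values that describe 6 points which share depth and composition.

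The 3p arms, the strands that are mostly discarded, were rare. miR-183-3p had 466, 313 and 429 reads in F1, F2 and F3, or 31.5, 5.27 and 12.0 CPM, and 384, 711 and 356 reads in M1, M2 and M3, or 20.6, 16.2 and 15.1 CPM. F1 and F2 marked the ends of the range, with the males between them. edgeR gave 0.001 on the log2 scale (adjusted p = 0.999, standard error 0.54), and its 95% interval from -1.11 to 1.11 includes the values found without F1 (0.89) and without F2 (-0.40).

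miR-182-3p had 101, 0 and 122 reads in F1, F2 and F3 and 58, 300 and 155 reads in M1, M2 and M3. In CPM this was 6.82, 0 and 3.41 in females and 3.10, 6.83 and 6.56 in males, and the sexes overlapped. The 0 in F2, the deepest, would allow at most 0.0505 CPM if 3 reads are taken as the limit. That limit covers counting error only. As F2 detected fewer miRNAs than any other library, its 0 may not reflect the level of miR-182-3p. edgeR fitted a log2 fold change of 0.66 (95% interval -1.99 to 3.32, standard error 1.29, adjusted p = 0.849), which gives no direction. Without F2 it was 0.08 (adjusted p = 0.953). With 1 factor of unwanted variation (RUVr), the correction named in the study's methods, it was 1.86 in edgeR (adjusted p = 0.135) and 1.95 in DESeq2 (adjusted p = 0.0877).

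The arm that is not among the 5 members, miR-96-3p, had 54 reads in F1, 68 in M2 and 0 in the other 4 libraries. PCR reads without molecular identifiers are not independent molecules. The counting intervals of the members, at most 8.67% of the level on either side for miR-96-5p and at most 26.7% for miR-182-3p where it was detected, cover counting error only.

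As the cluster is known to be made from a shared transcript, the ratios of the members within a library were compared as well. Such a ratio does not depend on library scaling. Per 100 reads of miR-182-5p, miR-96-5p had 7.58, 6.31 and 8.45 reads in F1, F2 and F3 and 3.91, 3.35 and 2.36 reads in M1, M2 and M3. The sexes did not overlap, and the lowest female library (F2) lay well above the highest male library (M1). Females averaged a log2 ratio of -3.76 ± 0.21 (SD, n = 3) and males one of -4.99 ± 0.37 (SD, n = 3), so that females had 2.35 times the male ratio (two-sided exact permutation test, p = 0.1, the smallest possible, adjusted p = 0.25 over the 5 ratios tested). Without any 1 library, the difference in log2 ratio stayed between -1.39 and -1.03. It was smaller once GC content was allowed for, as the fitted log2 fold change of miR-96-5p (39.1% GC) lay below that of miR-182-5p (48.0% GC) by a difference of -1.24 in the edgeR fit and of -0.73 with the GC trend removed. The latter difference was not tested.

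Against miR-183-5p the picture was the same, although both ratios share miR-96-5p and are not independent of each other. Per 100 reads of miR-183-5p, miR-96-5p had 2.69, 1.92 and 4.07 reads in F1, F2 and F3 and 1.31, 1.04 and 0.820 reads in M1, M2 and M3. Again no male library reached a female one. The log2 ratio differed by -1.41 between the sexes (two-sided exact permutation test, p = 0.1, adjusted p = 0.25), so that females had 2.66 times the male ratio. For these members, of similar GC content, the fitted log2 fold changes differed by -1.40 in the edgeR fit and by -1.24 with the GC trend removed. The ratio of miR-182-5p to miR-183-5p, in contrast, overlapped between the sexes, with 35.5, 30.4 and 48.2 reads of miR-182-5p per 100 reads of miR-183-5p in F1, F2 and F3 and 33.4, 31.0 and 34.7 in M1, M2 and M3. Its log2 value differed by -0.18 (two-sided exact permutation test, p = 0.6, adjusted p = 0.75).

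**Figure D2:**
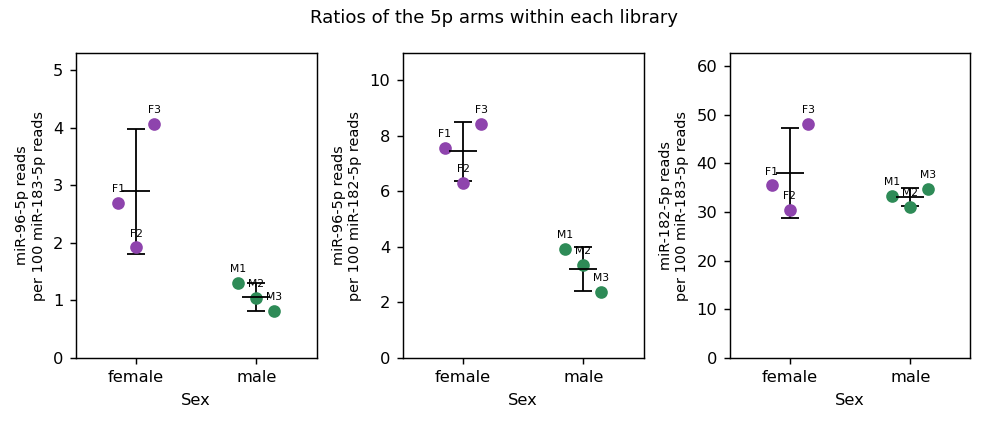
Reads of one 5p arm per 100 reads of another in each library (linear axes from 0), with the mean and SD of each sex in black. Both ratios with miR-96-5p on top separate the sexes, with females at 6.31 to 8.45 and males at 2.36 to 3.91 per 100 reads of miR-182-5p, while miR-182-5p per 100 reads of miR-183-5p overlaps.

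Between the arms of one hairpin, the 5p arm was the major one in every library. For each read of miR-183-3p there were 139.6, 409 and 151 reads of miR-183-5p in F1, F2 and F3 and 136, 173 and 179 reads in M1, M2 and M3. F2 stood apart from the other 5, which lay close together, and the sexes did not differ by more than their spread (two-sided exact permutation test on log2 ratios, p = 0.8, adjusted p = 0.8). As rare miRNAs were poorly represented in F2, its 313 reads of miR-183-3p, and so this ratio, may not reflect the level of the arm. For each read of miR-182-3p there were 228 and 256 reads of miR-182-5p in F1 and F3 and 301, 127 and 143 reads in M1, M2 and M3. In F2, where 3 reads were taken for its 0, there were at least 12963, a value that holds only if this 0 reflects the level. The ratio of miR-182-5p to miR-182-3p overlapped between the sexes (two-sided exact permutation test, p = 0.3, adjusted p = 0.5).

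GC content moved with the sex difference across miRNAs. Over the 474 well-covered miRNAs that have a mature sequence in RefSeq, the log2 fold change and the GC content had a Spearman correlation of 0.41, given as a description since miRNAs are not independent and share the 6 libraries. miR-96-5p is on the low side, at 39.1% GC, as is miR-183-5p at 40.9%, whose log2 fold change was -0.12. When the GC trend of each library was removed, the log2 fold change of miR-96-5p in edgeR was -1.08 (adjusted p = 0.0313), that of miR-183-5p 0.17 and that of miR-182-5p -0.35.

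**Figure D3:**
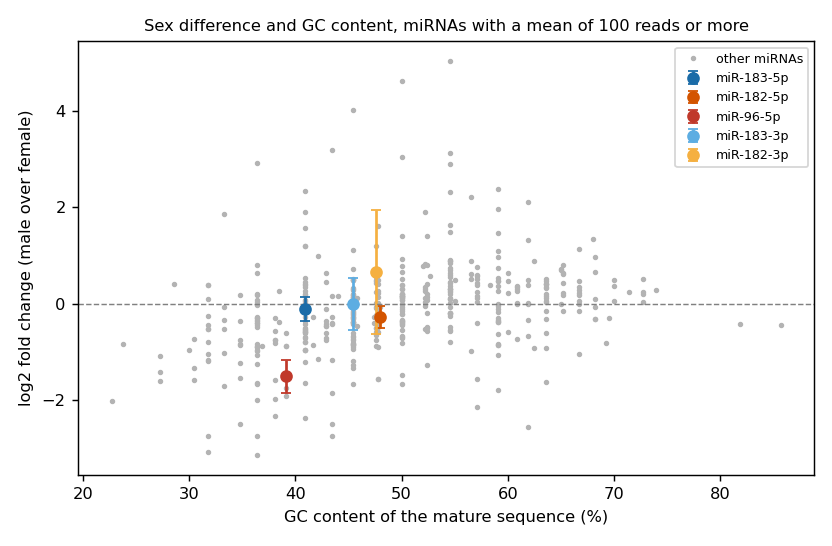
The log2 fold change (male over female) of each well-covered miRNA against the GC content of its mature sequence in percent, with the 5 members in colour and bars of 1 standard error. miRNAs of low GC content lie lower on the whole (Spearman 0.41), and miR-96-5p, at 39.1% GC and -1.51, lies below miR-183-5p, at 40.9% and -0.12.

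The difference in miR-96-5p kept its direction in all 13 alternative settings of scaling, filter, model and GC content and stayed past the threshold in each, with log2 fold changes from -1.56 to -1.06. None of the 13 settings gave a call for miR-183-5p, miR-183-3p or miR-182-5p. miR-182-3p had 2 calls, both with RUVr in the version added after the data were seen, and could not be tested with at least 10 reads required in every library.

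**Figure D4:**
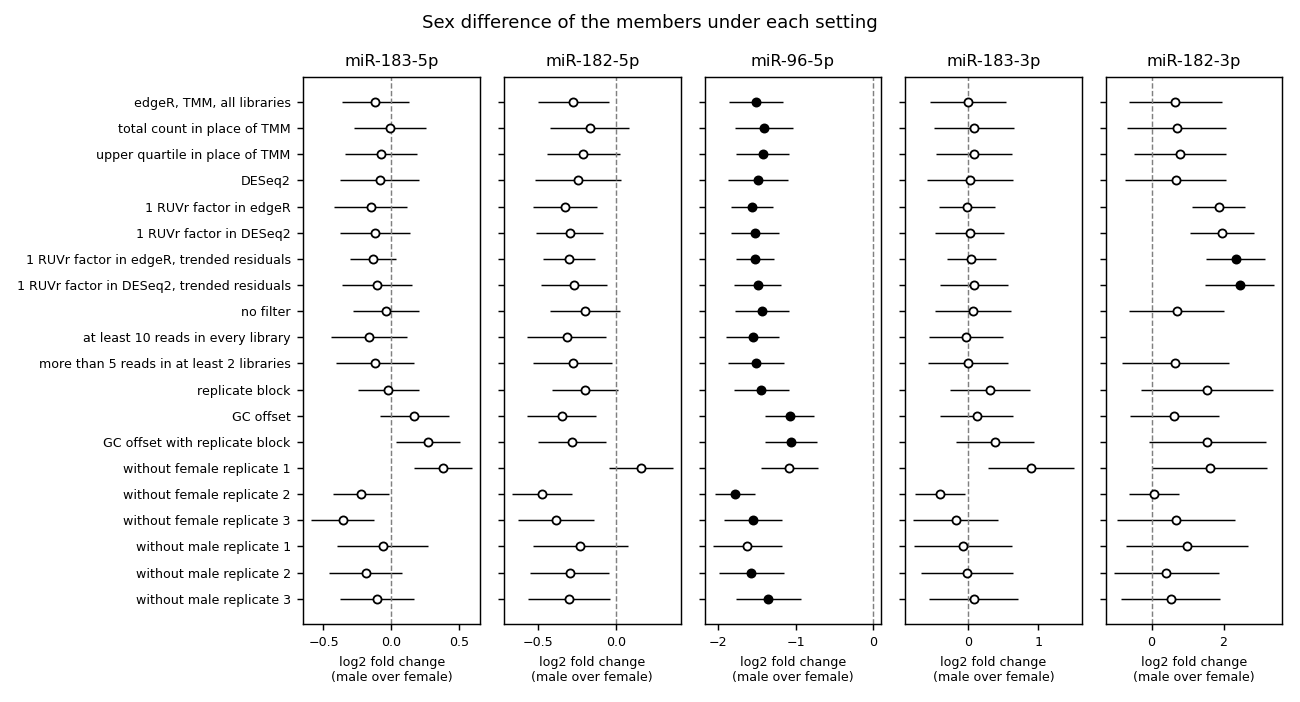
The log2 fold change (male over female, each axis on its own scale) of each member under each setting, with bars of 1 standard error, filled where the adjusted p was below 0.05. miR-96-5p is filled everywhere apart from the fits without F1 and without M1, and miR-182-3p only in both added RUVr fits.

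Marker miRNAs of other tissues also differed between the sexes, and their part in the difference of miR-96-5p was not tested. The counts below stand beside 3.21% male-biased and 5.27% female-biased over all miRNAs tested. In the epithelial list (miR-200 family, miR-205-5p and miR-203-3p), 6 of 7 were male-biased, and the summed level was 730 to 1545 CPM in females and 9181 to 9499 CPM in males. The member that did not pass was miR-141-3p, of the miR-200 family that is known to maintain epithelial identity, with 0 reads in F2. In skeletal muscle, 4 of 4 were male-biased, with 388 to 1180 CPM in females and 5497 to 6139 CPM in males. In mesenchyme, 4 of 5 were male-biased, with 4515 to 12642 CPM in females and 19307 to 23097 CPM in males. In red blood cells, 1 of 3 was male-biased, with 646 to 1354 CPM in females and 1595 to 1972 CPM in males.

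The lists with female-biased members were those for hindbrain and spinal cord and for neurons. In the former, miR-10a-5p and miR-10b-5p of the Hox clusters were female-biased, 2 of 4, and the summed level was 8613 to 12290.4 CPM in females and 1659 to 2055 CPM in males, with miR-196a-5p and miR-196b-5p at 0 in 4 libraries. Of the 6 neuronal miRNAs, which had 193249 to 212077 CPM in females and 162451 to 187954 CPM in males, 3 were female-biased, namely miR-137-3p, miR-138-5p and miR-153-3p. The summed level is mostly that of miR-9-5p, which did not pass the test (edgeR, adjusted p = 0.555), whereas the TMM-scaled means of the 3 called miRNAs were between 10.3 and 133 CPM. In the list for pigment epithelium, choroid plexus and lens (miR-204-5p, miR-211-5p and miR-184-3p), 0 of 3 passed the test, with 1254 to 1500.1 CPM in females and 1230.1 to 1277 CPM in males. The median log2 fold change was 2.35 for epithelium, 2.91 for muscle, 1.2 for mesenchyme, 0.18 for red blood cells, -2.02 for hindbrain and spinal cord, -0.77 for neurons and 0.27 for the last list, beside -0.02 over all miRNAs tested.

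The miRNAs most like each guide arm were sought among the 548 other well-covered miRNAs, by the Pearson correlation of TMM-scaled log2 CPM over the 6 libraries. For miR-96-5p these were miR-10a-3p (0.99), miR-19b-3p (0.97) and miR-192-5p (0.96). miR-10a-3p and miR-19b-3p were also female-biased, with log2 fold changes of -1.66 (adjusted p = 0.0031) and -1.76 (adjusted p = 4.4e-05) in edgeR's test, and had a GC content of 36.4% and 39.1%. miR-192-5p, at 47.6% GC, did not pass (log2 fold change -0.66, edgeR, adjusted p = 0.185). For miR-183-5p they were miR-664-3p (0.91), miR-324-3p (0.86) and miR-297c-3p (0.81, tied with miR-297a-3p and miR-297b-3p, which have the same counts in every library), and for miR-182-5p miR-302d-3p (0.94), miR-345-5p (0.88) and miR-664-3p (0.88). None of those named for miR-183-5p and miR-182-5p passed the test for sex, and miR-664-3p was on both lists. These correlations are maxima over many miRNAs and few libraries, and are given without a p. The sex calls of the miRNAs named here are not independent of this choice, since the same 6 libraries ranked and tested them.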

How the data were processed

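The authors trimmed reads with cutadapt 1.15, mapped them with Bowtie 1.2.1 and counted known miRNAs in the miRDeep2 workflow on mm9. The deposited values are raw counts, one table of mature miRNAs for each library, with no normalization. No library is a copy of another (at most 0.21% identical counts between any 2). From these counts, miRNAs with at least 10 reads over the 6 libraries were tested in R 4.3.3 with edgeR 4.0.16 (TMM, quasi-likelihood test, sex as the only term, threshold 0.05). DESeq2 1.42.0, RUVr, other scalings and filters, a replicate block, a GC offset (loess, span 0.75) and leaving out each library were alternatives, run with the same counts. Ratios of members used log2 of counts plus 0.5 and exact permutation tests (SciPy 1.17.1). Intervals on levels are exact binomial at 95%. The self-checks ran on simulated data. The RNA-seq and RT-qPCR data are not used here.

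The members, the lists of marker miRNAs and the rule for named miRNAs (the members, miRNAs sharing a seed, the lists, and the 3 most correlated with each guide arm) were chosen with earlier results of these data known. RUVr residuals came from upper quartile scaling with tagwise dispersions, and a version with TMM and trended dispersions was added after the data were seen. Labels do not say whether libraries came from separate litters.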

Additional observations from a re-analysis of the deposited data

How the results depend on the processing

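The call for miR-96-5p held in 13 of 13 settings other than leaving out a library and in 4 of 6 fits without 1 library, where the log2 fold change ran from -1.78 to -1.08 (calls lost without F1 and without M1). The other 4 members stayed short of the threshold everywhere, apart from miR-182-3p in the RUVr version added after the data were seen, at 2.34 (edgeR, adjusted p = 0.0256) and 2.45 (DESeq2, adjusted p = 0.0414). miR-183-5p turned to 0.17 with the GC offset and 0.27 with the GC offset and replicate block, and ran from -0.36 to 0.38 without 1 library. miR-183-3p, at 0.001, turned to -0.012 with RUVr in edgeR, -0.030 with 10 reads required in every library and -0.0019 with more than 5 reads in 2 libraries, and ran from -0.40 to 0.89 without 1 library. miR-182-5p ran from -0.48 to 0.16. The causes were not tested. The summed level differed by -750 to 919 CPM (male minus female, positive without F1). The log2 ratio of miR-183-5p to miR-183-3p differed by -0.62 to 0.15 (positive without F2) and that of miR-182-5p to miR-183-5p by -0.32 to 0.0079 (positive without F3).

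The log2 ratios behind the order of levels ran from 1.47 to 1.60, 4.17 to 4.54, 1.35 to 1.83 and 1.83 to 3.45 when 1 library was left out, all in the same direction. The planned sign-flip test of this order is not reported, since the pairs were ranked on the same libraries. The 95 calls over all miRNAs became 147 and 226 with RUVr in edgeR and DESeq2, 228 and 257 in its added version, 59 with more than 5 reads in 2 libraries, and 30 (without M1) to 203 (without F2) without 1 library. The counts did not show that replicate numbers pair the samples. The same-numbered libraries had correlations of -0.0801, 0.0289 and 0.158 in their deviations over 553 miRNAs. The last, of F3 and M3, was the highest of all pairs, but not every library correlated best with its own number. Whether same-numbered libraries shared a litter or a batch cannot be told from these values. With the replicate block there were 92 calls, miR-96-5p had a log2 fold change of -1.44 (edgeR, adjusted p = 0.0062), and no member's call changed.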
